A study of Rattus norvegicus with 6 samples.

Results

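Hox genes encode homeodomain transcription factors that lie side by side in clusters, and in the hindbrain and spinal cord of vertebrate embryos each gene is expressed from the tail end up to its own front border. Genes of low paralogue number, at the 3′ end of a cluster, reach far forward into the hindbrain, whereas genes of higher number stop in the caudal medulla or further back along the cord. Forebrain and midbrain are known as territories without Hox expression, so in brain tissue these genes mark the hindbrain and the cord and the level along them. The set described here was every gene in the deposited tables whose symbol begins with Hoxa, Hoxb, Hoxc or Hoxd followed by a number, which gave 37 of 30498 genes. The rule used the symbol alone. They fall into a Hoxa cluster of 10 genes on chromosome 4 (81255883 to 81361091), a Hoxb cluster of 9 on chromosome 10 (81160498 to 81332836), a Hoxc cluster of 9 on chromosome 7 (134058640 to 134173133) and a Hoxd cluster of 9 on chromosome 3 (59570646 to 59667769), all on mRatBN7.2. No gene in the tables carried the symbol Hoxb2 or Hoxa10, so neither name is among the members.

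Whole brains of newborn rats (Rattus norvegicus), delivered by Caesarean section and dissected at once, were profiled by RNA-seq of polyadenylated RNA in 3 libraries from pups of calorically restricted (CR) dams and 3 libraries from pups of control dams. Maternal caloric restriction served as a model of fetal growth restriction (FGR), and all 6 libraries share tissue and age. Strain, the degree and timing of the restriction, the litters behind the libraries and the level at which the brainstem was severed are not given in the labels, and p-values here reflect only how far these libraries differ from each other, part of which may be technical. Values are FPKM, which scale the fragments of a gene to its exon length and to the depth of the library, from 22161522, 25734737 and 25690833 assigned reads in CR replicates 1, 2 and 3 and 14030961 to 25345354 in the control libraries. With 1 kb of exon, 3 reads were worth 0.117 to 0.135 FPKM in CR libraries and 0.118 to 0.214 FPKM in control libraries. In bulk tissue, fewer cells of a type and less RNA per cell cannot be told apart.

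Hox transcripts were present in all 3 CR libraries and close to absent in the 3 control libraries. The 37 genes together had 392, 399 and 3702 reads in CR replicates 1, 2 and 3, against 23, 9 and 14 reads in control replicates 1, 2 and 3. On the FPKM scale the family summed to 8.94, 7.76 and 75.1 in CR libraries, against 1.08, 0.240 and 0.358 in control libraries. CR replicate 3 stood apart from the other CR libraries in this family, so tests and folds of members are also given without it, the folds by a choice made after seeing the data. The ratio of group means of the summed FPKM was 54.8 with all libraries and 15 without CR replicate 3.

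At a floor of 3 reads, 13, 12 and 23 members were detected in CR replicates 1 to 3, against 3, 0 and 2 in control replicates 1 to 3. At 10 reads the counts were 10, 9 and 17 in CR libraries and 0 in every control library. The highest paralogue number reached with 10 reads was 5 in CR replicates 1 and 2 and 9 in CR replicate 3. Of the 37 members, 23 had 3 or more reads in some library, 5 had at most 1 or 2 reads in any library (Hoxc8, Hoxa9, Hoxd9, Hoxd10 and Hoxb13), and 9 had no read at all (Hoxb1, Hoxb9, Hoxa11, Hoxc11, Hoxd11, Hoxc12, Hoxd12, Hoxc13 and Hoxd13). All 3 CR values lay above all 3 control values for 13 members, and 1 member, Hoxc8, lay below with 1 read in each control library and 0 in each CR library. The same held in 20.8% (above) and 16.5% (below) of all genes with a value above 0 in some library, a base that leaves out the 9 members with no read.

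**Figure D1:**
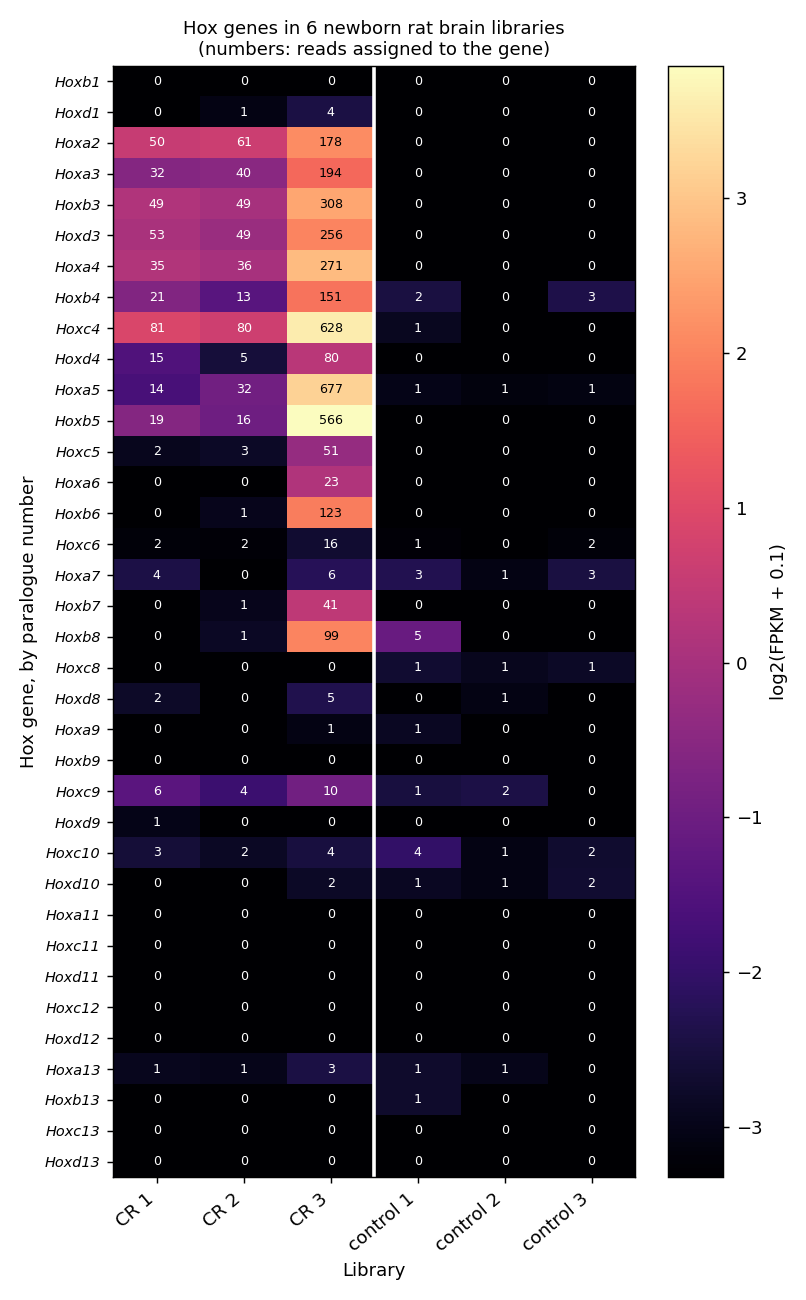
Level of 36 of the 37 Hox genes as log2(FPKM + 0.1) (colour) and reads assigned to it (numbers), with CR libraries left of the white line and control libraries right of it, ordered by paralogue number. Signal in CR replicates 1 and 2 runs from Hoxa2 to Hoxb5, CR replicate 3 is brighter and adds paralogues 6 to 8, and the control columns hold at most 5 reads in any gene.

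Paralogues 1 and 2 have the most anterior borders. Hoxd1 had 0, 1 and 4 reads in CR libraries, against 0 in every control library, and Hoxb1 had no read. Hoxa2 (ENSRNOG00000005968, chromosome 4, 81262768 to 81265044, minus strand), whose expression in mouse reaches further forward in the hindbrain than that of any other Hox gene, stood at 1.38, 1.45 and 4.24 FPKM in CR replicates 1 to 3, against 0 FPKM in every control library. Its 50, 61 and 178 reads in CR libraries thus stood against none in control libraries, and the groups did not overlap. Hoxa2 rose in CR (2.36 ± 1.63 FPKM in CR libraries, 0 in control libraries, SD, n = 3 each; log2 fold change on log2(FPKM + 1) 1.64, SE 0.288, limma adjusted p = 0.00503), at least 23.3-fold when 3 reads are allowed in each control library, and at least 14.02-fold without CR replicate 3. Its log2 fold change without CR replicate 3 was 1.27 (limma adjusted p = 0.00396), and the call also held without each of the other libraries.

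Paralogue 3 genes, needed in mouse for the caudal rhombomeres and the nerves that arise from them, were read in every CR library and in no control library. Hoxa3 stood at 0.565, 0.608 and 2.96 FPKM in CR libraries, against 0 in every control library. Hoxb3 stood at 1.03, 0.891 and 5.61 FPKM in CR libraries, against 0 in every control library. Hoxd3 stood at 0.946, 0.753 and 3.94 FPKM in CR libraries, against 0 in every control library. For each of the 3 genes CR replicates 1 and 2 were close to each other and CR replicate 3 was the high one, with no overlap between groups. All 3 rose in CR by limma, with log2 fold changes of 1.11 for Hoxa3 (SE 0.335, adjusted p = 0.0380), 1.56 for Hoxb3 (SE 0.436, adjusted p = 0.0288) and 1.36 for Hoxd3 (SE 0.359, adjusted p = 0.0232). Against 3 reads in each control library the folds were at least 21.3 for Hoxa3, 32.5 for Hoxb3 and 28.8 for Hoxd3, and without CR replicate 3 at least 9.09, 12.5 and 13.02 for the same genes. The log2 fold changes were smaller without CR replicate 3, at 0.67, 0.97 and 0.89 for Hoxa3, Hoxb3 and Hoxd3, while the limma adjusted p were lower, at 0.0168, 0.00707 and 0.00916.

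Paralogue 4 genes, whose front borders lie in the caudal hindbrain, held the largest share of Hox FPKM in CR replicates 1 and 2, with 40.3% and 35.9%. Hoxa4 (chromosome 4, 81289682 to 81291685) stood at 1.04, 0.925 and 6.97 FPKM in CR libraries, against 0 in every control library. Hoxc4 (ENSRNOG00000016613, chromosome 7, 134170591 to 134173133) stood at 1.77, 1.5 and 11.8 FPKM in CR libraries, against 0.0345, 0 and 0 FPKM in control libraries, the first of these being 1 read. Both rose in CR without overlap between groups, Hoxa4 by 1.66 on the log2 scale (SE 0.495, limma adjusted p = 0.0361) and Hoxc4 by 2.14 (SE 0.561, limma adjusted p = 0.0226). The fold was at least 27.3 for Hoxa4, and for Hoxc4 the ratio of pooled read rates was 620 with a 95% counting interval of 111 to 24511. Without CR replicate 3 the Hoxa4 fold was at least 9.03 and the Hoxc4 ratio was 194 (34.4 to 7722). The log2 fold changes without CR replicate 3 were 0.99 for Hoxa4 (limma adjusted p = 0.00675) and 1.38 for Hoxc4 (limma adjusted p = 0.00351).

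The other members of paralogue 4 were lower. Hoxb4 stood at 0.537, 0.287 and 3.33 FPKM in CR libraries, against 0.0809, 0 and 0.0923 FPKM in control libraries, where it had 2, 0 and 3 reads. The groups did not overlap, and the difference did not pass the threshold (log2 fold change 0.95, SE 0.410, limma adjusted p = 0.111), also without CR replicate 3 (0.41, limma adjusted p = 0.0914). On log2(FPKM + 0.1) Hoxb4 did pass (limma adjusted p = 0.0419). By limma-voom on genes with at least 10 reads it passed without CR replicate 3 (adjusted p = 0.0234) and not with it (0.0614). Hoxd4 had 15, 5 and 80 reads in CR libraries, against 0 in every control library, a fold of at least 8.05, or of at least 2.64 without CR replicate 3. Its mean over the 6 libraries was under the 0.5 FPKM needed to enter the test. Limma-voom on genes with at least 10 reads called Hoxd4 higher (adjusted p = 0.0358, and 0.0179 without CR replicate 3).

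Paralogue 5 genes in mouse reach from the cord into the caudal medulla. Summed, they showed a wider excess of CR replicate 3 over the other CR libraries than paralogues 2, 3 or 4 did. Hoxb5 (ENSRNOG00000008010, chromosome 10, 81269372 to 81271580) stood at 0.559, 0.405 and 14.36 FPKM in CR libraries, against 0 in every control library. Hoxa5 (chromosome 4, 81302353 to 81306234) stood at 0.216, 0.425 and 9.01 FPKM in CR libraries, against 0.0244, 0.0135 and 0.0185 FPKM in control libraries, which was 1 read in each. Hoxc5 had 2, 3 and 51 reads in CR libraries, against 0 in every control library. In all 3 genes the groups were separate, and CR replicate 3 exceeded the other CR libraries by more FPKM than they exceeded the control libraries. With so wide a spread neither tested gene passed the threshold, Hoxb5 having a log2 fold change of 1.69 (SE 0.822, limma adjusted p = 0.150) and Hoxa5 one of 1.35 (SE 0.716, limma adjusted p = 0.184). Without CR replicate 3 Hoxb5 was called higher in CR (log2 fold change 0.57, limma adjusted p = 0.0294) and Hoxa5 was not (0.37, limma adjusted p = 0.107). Limma-voom on genes with at least 10 reads, without CR replicate 3, called both Hoxb5 (adjusted p = 0.00189) and Hoxa5 (0.00501). With all libraries on log2(FPKM + 0.1), Hoxb5 passed (limma adjusted p = 0.0337) and Hoxa5 did not (0.0659). Hoxb5 was at least 47.5-fold above 3 reads in each control library, Hoxa5 had a rate ratio of 189 (95% counting interval 64.5 to 920), and Hoxc5 was at least 4.43-fold above. CR replicate 3 carried these folds: without it Hoxb5 was at least 4.48-fold above, the Hoxa5 ratio was 18.5 (5.95 to 93.0), and Hoxc5, at a mean of 0.0378 FPKM in CR replicates 1 and 2, lay under its control floor of 0.0603 FPKM.

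Paralogues 6 to 8 are genes of the cervical and thoracic cord, and 4 of them, Hoxa6, Hoxb6, Hoxb7 and Hoxb8, were read almost entirely in CR replicate 3. Hoxa6 had 0, 0 and 23 reads in CR libraries, Hoxb6 0, 1 and 123, and Hoxb7 0, 1 and 41, against 0 reads in every control library for each of the 3 genes. Hoxb6 thus reached 3.67 FPKM in CR replicate 3, and 0 and 0.0298 FPKM in CR replicates 1 and 2. Hoxb8, which in mouse is needed in the dorsal spinal cord, had 0, 1 and 99 reads in CR libraries, against 5, 0 and 0 in control libraries, so that groups overlapped. Its 0.366 FPKM in control replicate 1 was the highest Hox level of any control library. Hoxb6 (log2 fold change 0.76, limma adjusted p = 0.317) and Hoxb8 (0.64, limma adjusted p = 0.423) were not called, and without CR replicate 3 they stood at 0.02 (limma adjusted p = 0.925) and -0.12 (limma adjusted p = 0.668).

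The remaining genes of paralogues 6 to 8 were low. Hoxc6 had 2, 2 and 16 reads in CR libraries, against 1, 0 and 2 in control libraries, over 10669 nt of exon. Hoxa7 had 4, 0 and 6 reads in CR libraries, against 3, 1 and 3 in control libraries, and Hoxd8 had 2, 0 and 5 in CR libraries, against 0, 1 and 0 in control libraries. In these 3 genes the groups overlapped.

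Paralogues 9 to 13, genes of thoracic to tail levels, showed little signal in any library. Hoxc9 had 6, 4 and 10 reads in CR libraries, against 1, 2 and 0 in control libraries, with a rate ratio of 5.24 (95% counting interval 1.55 to 27.5) and no overlap, and a ratio of 4.02 (1.04 to 22.7) without CR replicate 3. Its mean was under the filter of the main test. With no filter limma called Hoxc9 higher (adjusted p = 0.0490), and limma-voom on genes with at least 10 reads did not (adjusted p = 0.0627). Hoxc10, a gene of lumbar motor neurons in mouse, had 3, 2 and 4 reads in CR libraries, against 4, 1 and 2 in control libraries. Hoxa13, known from limb and hindgut, had 1, 1 and 3 reads in CR libraries, against 1, 1 and 0 in control libraries. Hoxc10 and Hoxa13 overlapped between groups, and at this depth no difference was detectable.

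Taking all members, 11 of 37 had a mean of at least 0.5 FPKM and were tested, and 6 of them were called higher in CR and 0 lower by limma at an adjusted p of 0.05. Among all 15247 genes tested, 17.7% were called higher in CR and 16.2% lower. The members entered the test through the CR libraries, where they are high, so the count describes those members and is no support for the family as a whole. Limma-voom on the reads of the tested genes also called 6 higher and 0 lower, against 20.2% and 17.7% of all genes by limma-voom. At an unadjusted p under 0.05, 6 of the 11 were higher and 0 lower, with no share over all genes worked out. Without CR replicate 3, 7 of the 11 were called higher (the same 6 and Hoxb5) and 0 lower, against 11.7% and 10.2% of all genes tested. The 0.5 FPKM filter still used the mean of all 6 libraries, so CR replicate 3 had a part in which members entered this run. The call for Hoxa2 held without each single library, whereas Hoxa3, Hoxb3, Hoxd3, Hoxa4 and Hoxc4 missed the threshold without any 1 of the control libraries, with limma adjusted p of 0.0504 to 0.0842. Limma-voom was also run on the reads of genes with at least 10 reads in all. With CR replicate 3, 6 of 19 members were called higher and 0 lower, against 17.4% and 13.7% of all genes. These 6 included Hoxd4 (limma-voom adjusted p = 0.0358) and not Hoxc4 (0.0577). Without CR replicate 3, 10 of 19 were called higher and 0 lower, against 13.1% and 10.4%. These 2 runs were chosen after seeing the data, and their rule of 10 reads counted the reads of all 6 libraries.

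**Figure D2:**
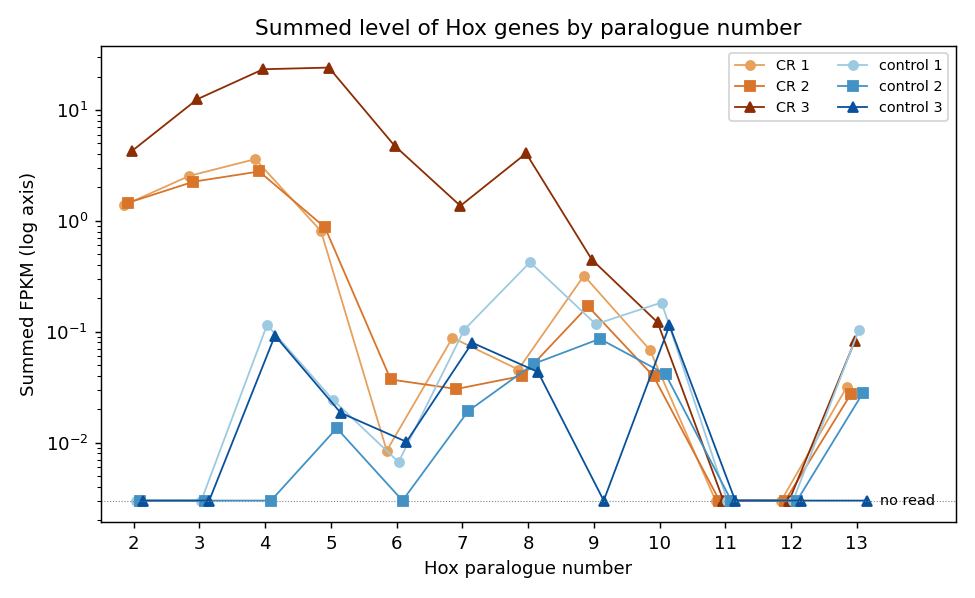
Summed FPKM of the Hox genes of each paralogue number from 2 up (log axis) in each library, CR in orange to brown and control in blue, with sums of 0 drawn on the dotted line. CR replicates 1 and 2 follow each other, peak at paralogue 4 and drop after paralogue 5, while CR replicate 3 stays above 1 FPKM from paralogue 2 to paralogue 8.

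Ordered along the body axis, CR replicate 3 differed from the other CR libraries in its profile as well as its level. Paralogues 1 to 4 summed to 7.57, 6.55 and 40.2 FPKM in CR libraries, against 0.115, 0 and 0.0923 FPKM in control libraries. Paralogues 5 to 8 summed to 0.95, 0.980 and 34.3 FPKM in CR libraries, against 0.559, 0.0842 and 0.152 FPKM in control libraries. Paralogues 9 to 13 summed to 0.421, 0.237 and 0.651 FPKM in CR libraries, against 0.404, 0.156 and 0.114 FPKM in control libraries. Paralogues 5 to 8 therefore made up 45.6% of Hox FPKM in CR replicate 3, and 10.6% and 12.6% in CR replicates 1 and 2. In CR replicates 1 and 2, paralogues 5 to 8 thus lay above control replicate 1 by less than paralogues 1 to 4 did.

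The ratio of CR replicate 3 to CR replicate 1, from reads scaled to depth, was 3.07 for paralogue 2 (95% counting interval 2.23 to 4.29), 4.88 for paralogue 3 (4.06 to 5.91), 6.41 for paralogue 4 (5.41 to 7.65) and 31.9 for paralogue 5 (22.8 to 46.0). These intervals cover counting error only. The ratio to CR replicate 2 ran in the same order, at 2.92, 5.50, 8.45 and 25.4. For paralogues 6, 7 and 8 the ratios to CR replicate 1 were 69.9 (19.0 to 582), 10.1 (3.71 to 38.7) and 44.9 (12.1 to 375), with wide intervals because CR replicate 1 had at most 4 reads in each. At paralogue 9 the ratio was 1.36 (0.480 to 4.12), an interval that includes 1. CR replicate 1 over CR replicate 2 was 1.17 for paralogues 1 to 4 (1.00 to 1.36) and 0.892 for paralogues 5 to 8 (0.585 to 1.35).

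**Figure D3:**
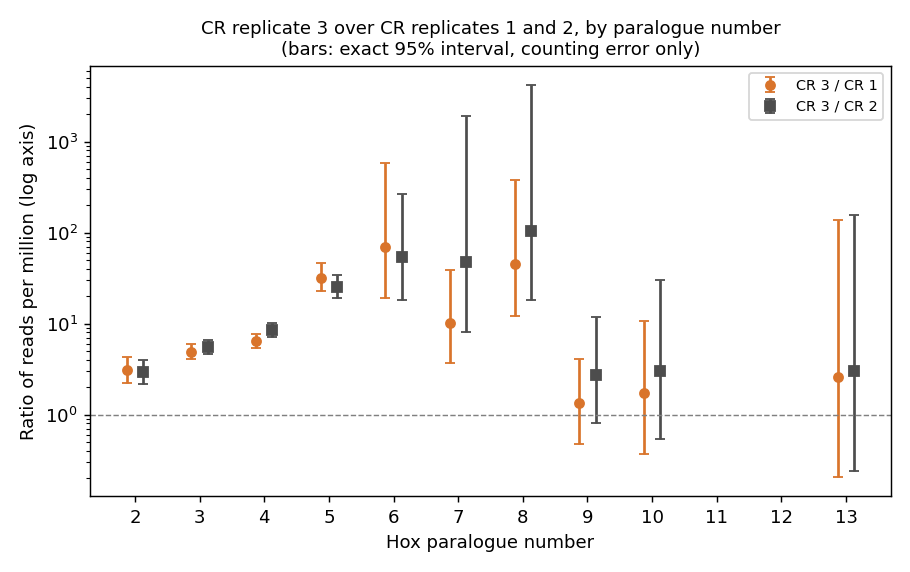
Ratio of depth-scaled reads in CR replicate 3 to CR replicate 1 (orange) and to CR replicate 2 (grey) for each paralogue number from 2 up, on a log axis, with exact 95% counting intervals as bars. The ratio lies near 3 at paralogue 2 and at 25.4 to 31.9 at paralogue 5, and the intervals of paralogues 9, 10 and 13 include 1.

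Across the 17 members with at least 10 reads in some library, FPKM in CR replicate 1 and CR replicate 2 had a Spearman rho of 0.95. CR replicate 3 had a rho of 0.55 with CR replicate 1 and 0.69 with CR replicate 2. These are descriptions across genes, which share library and depth and are not independent replicates. Over the 13 members with at least 10 reads in CR replicate 3 and a read in the other CR libraries, paralogue number had a rho of 0.46 with the ratio to CR replicate 1 and 0.44 with the ratio to CR replicate 2.

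Each cluster contributed to the difference between groups. Hoxa genes summed to 3.37, 3.47 and 24.5 FPKM in CR libraries, against 0.218, 0.0607 and 0.0981 FPKM in control libraries. Hoxb genes summed to 2.13, 1.68 and 32.2 FPKM in CR libraries, against 0.50, 0 and 0.0923 FPKM in control libraries. Hoxc genes summed to 2.17, 1.76 and 13.1 FPKM in CR libraries, against 0.321, 0.138 and 0.109 FPKM in control libraries. Hoxd genes were lowest in CR libraries, with 1.27, 0.847 and 5.32 FPKM, against 0.0386, 0.0413 and 0.0587 FPKM in control libraries. The Hoxb cluster had 42.8% of Hox FPKM in CR replicate 3, and 23.8% and 21.7% in CR replicates 1 and 2.

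**Figure D4:**
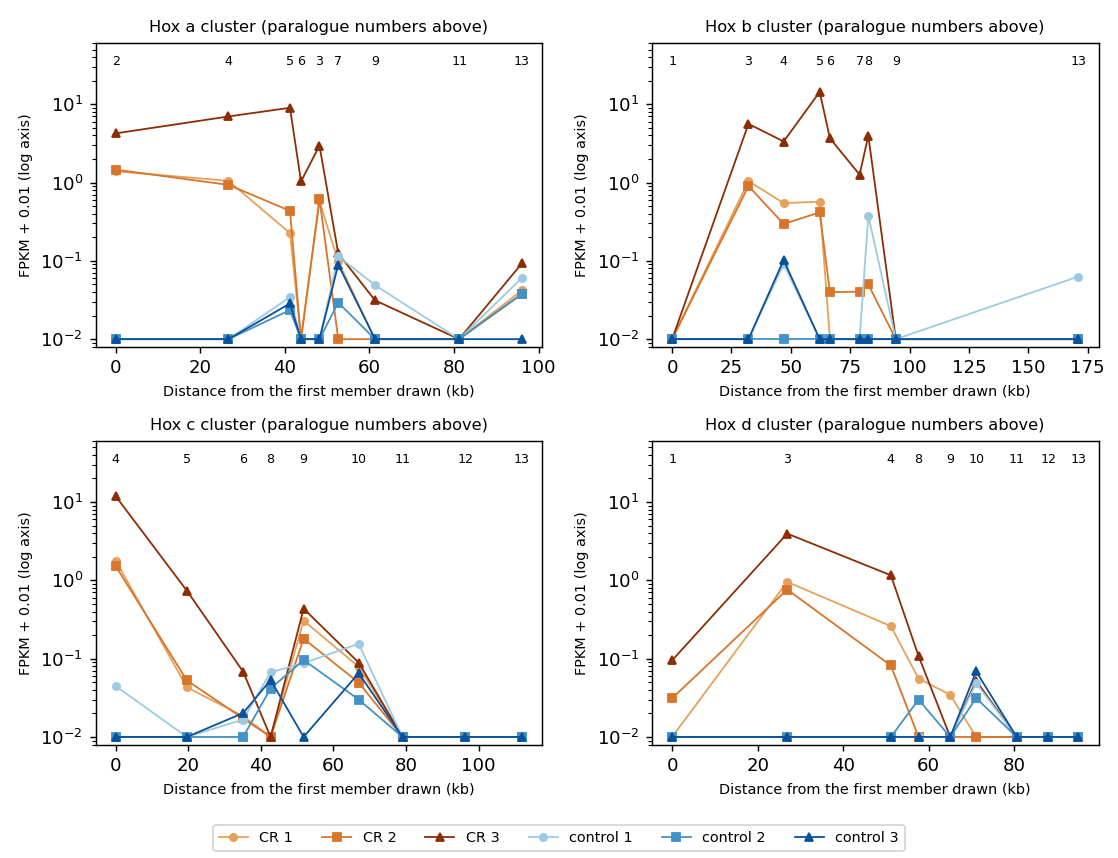
FPKM + 0.01 (log axis) of 36 members against the distance in kb of the annotated start from that of the lowest-numbered member drawn in the cluster, 1 panel per cluster and 1 line per library, with paralogue numbers along the top. The highest levels in CR libraries lie at paralogues 2 to 5 and values near the floor lie toward the high-numbered end, and Hoxa3 is drawn past Hoxa6 because its annotated start lies there.

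Other transcripts inside the clusters were read as well. A protein-coding gene with no symbol in the tables (ENSRNOG00000008365, chromosome 10, 81318026 to 81320192), between Hoxb3 and Hoxb1, stood at 1.58, 0.901 and 4.29 FPKM in CR libraries, against 0, 0.0277 and 0 FPKM in control libraries. It rose in CR by 1.55 on the log2 scale (SE 0.333, limma adjusted p = 0.0108), and its call held without each single library, including CR replicate 3 (1.13, limma adjusted p = 0.00894). Without a symbol this gene fell outside the rule for members, and whether it is itself a Hox gene was not examined. This gene was picked out after its values were seen. Its control values lay under the 0.5 FPKM of the filter, so it entered the test through the CR libraries. Evx1, a homeobox gene at the high-numbered end of the Hoxa cluster, stood at 0.391, 0.454 and 0.489 FPKM in CR libraries, against 0 in every control library. Evx2, its counterpart beside the Hoxd cluster, stood at 0.792, 0.545 and 0.546 FPKM in CR libraries, against 0 in every control library. Both Evx genes, which mark a class of interneurons in hindbrain and cord, were thus level across the CR libraries, where CR replicate 3 did not stand apart. The microRNA genes Mir10a, Mir10b, Mir196a, Mir196c and Mir615 had no read in any library of polyadenylated RNA.

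Genes just outside the clusters were called in both directions. Of 17 flanking genes in the tables, 15 were tested, and 5 were called higher in CR, 3 lower and 7 did not pass, with a median log2 fold change of 0.08, against 0.01 over all genes tested. These are 33.3% higher and 20% lower, against 17.7% and 16.2% of all genes tested. Those with the largest changes were Mtx2 (0.52, limma adjusted p = 0.00225), next to the Hoxd cluster, Calcoco1 (-0.53, limma adjusted p = 0.00216), Cbx1 (-0.34, limma adjusted p = 0.00738) and Hnrnpa1 (-0.32, limma adjusted p = 0.0160). The call for Hnrnpa1 was lost without CR replicate 2, CR replicate 3 or control replicate 2, with a highest limma adjusted p of 0.0672. Without CR replicate 3 the counts were 3 higher and 2 lower, against 11.7% and 10.2% of all genes tested. Without CR replicate 2 they were 2 and 2, and 3 were higher without control replicate 1 or control replicate 2.

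Promoters are shown for 4 members that span the pattern: Hoxa2, the member whose call held without every library; Hoxa4 and Hoxc4, called higher in CR and highest among paralogue 4; and Hoxa6, read in CR replicate 3 alone. The sequences are the 250 bases upstream of the annotated start, on the gene's strand, from RefSeq on GRCr8, a build other than that of the expression tables. Capitals mark matches, on either strand, to any of 5 motifs. The PBX-HOX motif was TGATNNAT, where N is any base, and the homeodomain core alone was TAATTA. The half-site bound by retinoic acid receptors was AGGTCA. The promoter elements were the CCAAT box, spelled as named, and the TATA box, taken as TATAAA. No motif contains another.
Hoxa2: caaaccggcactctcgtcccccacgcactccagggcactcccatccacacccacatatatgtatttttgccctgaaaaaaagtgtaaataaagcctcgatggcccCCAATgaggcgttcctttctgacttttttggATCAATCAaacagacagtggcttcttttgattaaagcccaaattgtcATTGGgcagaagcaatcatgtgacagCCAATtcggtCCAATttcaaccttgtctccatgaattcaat
Hoxa4: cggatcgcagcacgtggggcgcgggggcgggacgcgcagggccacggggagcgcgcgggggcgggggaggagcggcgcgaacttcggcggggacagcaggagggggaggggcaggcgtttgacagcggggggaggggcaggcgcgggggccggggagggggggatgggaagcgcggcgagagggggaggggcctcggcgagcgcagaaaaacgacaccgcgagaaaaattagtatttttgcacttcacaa
Hoxc4: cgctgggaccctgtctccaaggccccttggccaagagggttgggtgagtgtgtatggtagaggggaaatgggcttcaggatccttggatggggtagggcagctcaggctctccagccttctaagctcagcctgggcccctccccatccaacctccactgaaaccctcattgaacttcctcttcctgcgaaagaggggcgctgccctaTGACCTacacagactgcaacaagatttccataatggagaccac
Hoxa6: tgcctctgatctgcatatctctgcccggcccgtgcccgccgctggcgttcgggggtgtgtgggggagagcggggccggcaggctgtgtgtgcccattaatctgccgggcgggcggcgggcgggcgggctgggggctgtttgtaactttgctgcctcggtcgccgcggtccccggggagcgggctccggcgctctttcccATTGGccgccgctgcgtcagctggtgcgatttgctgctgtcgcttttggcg
Hoxa2 lies at chr4:82595693-82595942 (minus strand), Hoxa4 at chr4:82622303-82622552 (minus strand), Hoxc4 at chr7:136048809-136049058 (plus strand) and Hoxa6 at chr4:82639464-82639713 (minus strand). The Hoxa2 window holds 1 PBX-HOX match and 4 CCAAT boxes, the Hoxc4 window holds 1 receptor half-site, the Hoxa6 window holds 1 CCAAT box and the Hoxa4 window holds none of the 5 motifs.

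Of the 37 members, 19 had an entry in the promoter table. The PBX-HOX motif, through which Hox proteins and their PBX partners bind DNA together, was in 3 of the 19 (15.8%), against 7.96% of all 33469 promoters. The CCAAT box was in 11 of 19 (57.9%), against 34.0% of all promoters, the receptor half-site in 3 of 19 (15.8%), against 14.1%, the TATA box in 2 of 19 (10.5%), against 12.9%, and the homeodomain core in 1 of 19 (5.26%), against 4.86%. The 19 Hox promoters were richer in GC, with a median of 61.2% of bases, against 51.2%, and their median ratio of observed to expected CpG was 0.859, against 0.383. Hoxb1 and Hoxc4 were the only Hoxb and Hoxc members among the 19. Of the 4 shown, Hoxa2 (45.2% GC) and Hoxc4 (CpG ratio 0.147) lay under the respective median of all promoters. Hoxa4 and Hoxa6 lay above both Hox medians. A match is a description of these letters and not of binding.

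The partner and regulator genes of the Hox system were called in both directions. Of the 9 DNA-binding partners, all tested, 2 were called higher in CR, 4 lower and 3 did not pass, with a median log2 fold change of -0.03, against 0.01 over all genes tested. The shares were 22.2% higher and 44.4% lower, against 17.7% and 16.2% of all genes tested. Meis1, which forms complexes with Hox and PBX proteins, stood at 10.8, 10.7 and 16.1 FPKM in CR libraries, against 5.14, 4.90 and 5.23 FPKM in control libraries (log2 fold change 1.13, SE 0.145, limma adjusted p = 0.00178). CR replicate 3 was the highest library for Meis1, as for the Hox genes, and without it the log2 fold change was 0.95 (limma adjusted p = 0.00313). Pbx3 also rose (0.72, limma adjusted p = 0.00240, and 0.70 without CR replicate 3), while Pknox1 fell (-0.33, limma adjusted p = 0.0178). The call for Pknox1 was lost without CR replicate 1, CR replicate 2 or control replicate 2, with a highest limma adjusted p of 0.0703. Without CR replicate 3 the list had 2 higher and 2 lower, against 11.7% and 10.2% of all genes tested. Without CR replicate 2 it had 2 and 1, and without control replicate 2 it had 2 and 2.

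Of 15 upstream regulators, 8 were tested, and 2 were called higher in CR, 3 lower and 3 did not pass, with a median log2 fold change of -0.15. Their shares of 25.0% higher and 37.5% lower stand against 17.7% and 16.2% of all genes tested. Gbx2, a homeobox gene of the anterior hindbrain, stood at 3.52, 5.58 and 6.63 FPKM in CR libraries, against 0.417, 0.770 and 1.48 FPKM in control libraries (log2 fold change 1.73, SE 0.25, limma adjusted p = 0.00256). Cyp26b1, an enzyme that breaks down retinoic acid, rose by 0.81 (limma adjusted p = 0.00502). Without CR replicate 3 the log2 fold changes were 1.57 for Gbx2 and 0.77 for Cyp26b1, and both calls held. Rarg, a retinoic acid receptor, fell by 0.54 on the log2 scale (limma adjusted p = 0.0173). The call for Rarg was lost without CR replicate 2, CR replicate 3 or control replicate 1, with a highest limma adjusted p of 0.0642. Without CR replicate 2 the list had 2 higher and 1 lower. The Cdx genes, which regulate Hox clusters in the caudal embryo, were near the floor, with Cdx4 at 0 in every library.

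Chromatin regulators of Hox clusters were called in CR as lower or not at all. Of 18 tested, 0 were called higher, 9 lower and 9 did not pass, with a median log2 fold change of -0.29, against 0.01 over all genes tested. The 9 were 50% of the list, and 16.2% of all genes tested were called lower. Limma-voom on the reads called 0 higher and 10 lower, against 20.2% and 17.7% of all genes by limma-voom. At an unadjusted p under 0.05 the counts were 0 higher and 12 lower, with no share over all genes worked out. Among the 9 called lower by limma were Ezh2 (-0.69, limma adjusted p = 0.00210), Bmi1 (-0.67, limma adjusted p = 0.00126) and Cbx2 (-0.65, limma adjusted p = 0.00375), which belong to Polycomb complexes that keep Hox genes silent, and Kdm6b (-0.82, limma adjusted p = 0.00157), a demethylase that removes a Polycomb mark. Each of these 4 calls held without each single library. The list had 0 higher and 6 lower without CR replicate 3, against 11.7% and 10.2% of all genes tested. Ezh2 stood at 18.6, 14.2 and 16.8 FPKM in CR libraries, against 26.8, 26.0 and 29.0 FPKM in control libraries, so CR replicate 3 did not stand apart in it.

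Markers of brain regions differed between the groups along with the Hox genes. Hindbrain and cord neuron markers, 25 in the tables, summed to 53.5, 56.0 and 78.1 FPKM in CR libraries, against 17.2, 15.6 and 16.6 FPKM in control libraries. Of the 14 tested, 12 (85.7%) were called higher in CR, against 17.7% of all genes tested, and 2 did not pass. The median log2 fold change was 1.58. Without CR replicate 3 the counts were the same, against 11.7% of all genes tested, with a median of 1.36. Midbrain and rhombomere 1 regulators, 10 in the tables, summed to 32.3, 41.7 and 30.9 FPKM in CR libraries, against 4.41, 2.41 and 3.42 FPKM in control libraries. All 7 tested were called higher in CR, also without CR replicate 3, against the same 17.7% and 11.7% of all genes tested. Control means were under the 0.5 FPKM of the filter in 6 of these 7 genes and in 10 of the 14 hindbrain and cord genes, which thus entered the test through the CR libraries, so these counts are a description and no support for the lists. Telencephalon regulators, 8 in the tables, summed to 217, 152 and 189 FPKM in CR libraries, against 426, 432 and 344 FPKM in control libraries. Of the 8, 7 (87.5%) were called lower in CR, against 16.2% of all genes tested. General neuronal and progenitor markers summed to 4212, 4341 and 4138 FPKM in CR libraries, against 3666, 4182 and 3874 FPKM in control libraries. Of 6 tested, 3 (Snap25, Stmn2 and Gap43) were called higher and 0 lower, against 17.7% and 16.2% of all genes tested. Without CR replicate 2 or CR replicate 3 Snap25 alone of these genes was called higher. The part of these regional differences in the Hox result was not tested.

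The midbrain list did not share the excess of CR replicate 3, and Slc6a5 of the hindbrain and cord list did. En1, a midbrain and anterior hindbrain homeobox gene, stood at 4.51, 5.95 and 4.32 FPKM in CR libraries, against 0.339, 0.134 and 0.0738 FPKM in control libraries. Slc6a5, the glycine transporter of inhibitory neurons of brainstem and cord, stood at 1.81, 1.78 and 4.59 FPKM in CR libraries, against 0.0101, 0.0503 and 0.0384 FPKM in control libraries. CR replicate 3 was thus the highest library for Slc6a5 and not for En1. Tph2, the serotonin-synthesizing enzyme of the raphe, was level across CR libraries at 5.01, 4.68 and 6.10 FPKM, against 0.221, 0.229 and 0.210 FPKM in control libraries. Mnx1, a factor of spinal motor neurons, was at or near the floor, with 0.0243, 0 and 0.0210 FPKM in CR libraries, against 0 in every control library. These 4 markers were chosen after their values were seen.

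**Figure D5:**
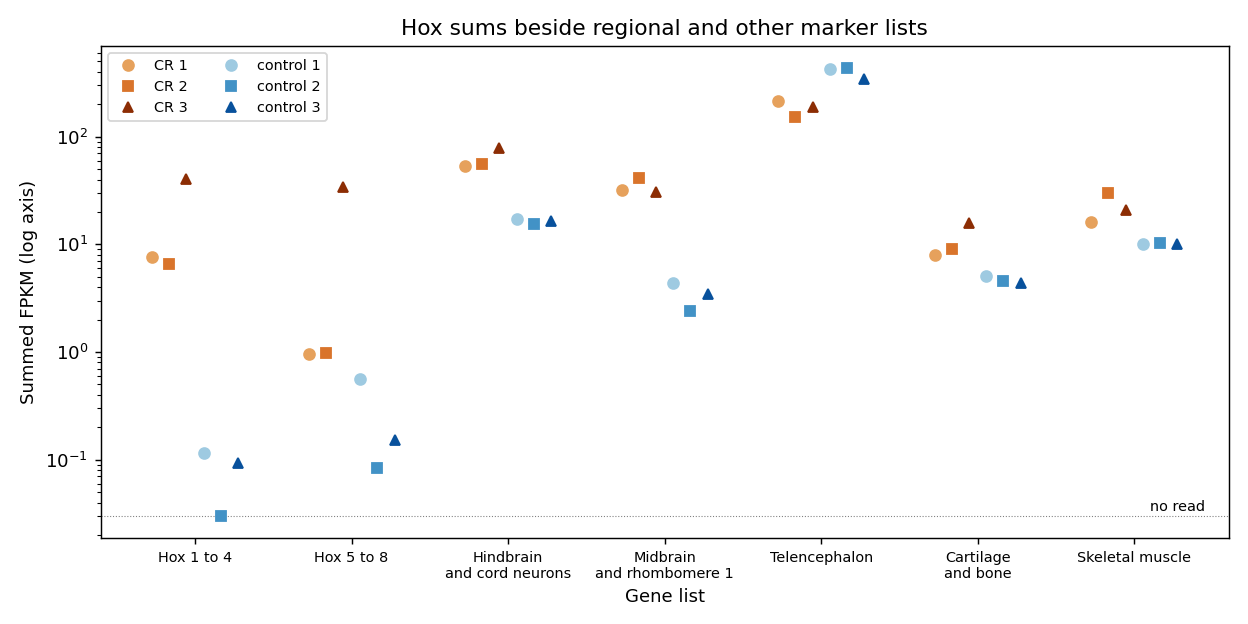
Summed FPKM (log axis) of Hox paralogues 1 to 4 and 5 to 8 beside the summed FPKM of marker lists, CR libraries in orange to brown left of control libraries in blue, with a sum of 0 drawn on the dotted line. CR replicate 3 stands far above CR replicates 1 and 2 in both Hox sums, is the highest library at 78.1 FPKM in hindbrain and cord neurons, and lies among or below the other CR libraries in the midbrain and telencephalon lists.

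Markers of tissues next to the brain were checked in the same way. Cartilage and bone markers summed to 8.02, 9.06 and 15.9 FPKM in CR libraries, against 5.05, 4.58 and 4.34 FPKM in control libraries. All 3 tested were called higher in CR, against 17.7% of all genes tested. The count was 3 without CR replicate 1 and 2 without any other single library. Of the 3, 1 had a control mean under the 0.5 FPKM of the filter and so entered the test through the CR libraries. The sum and 5 of the 8 genes were highest in CR replicate 3, where Matn1, a cartilage matrix gene, stood at 1.38 FPKM, and 0.143 and 0.185 FPKM in CR replicates 1 and 2, against 0.0377, 0.0627 and 0.0574 FPKM in control libraries. Col2a1, the main collagen of cartilage, stood at 4.30, 5.47 and 10.9 FPKM in CR libraries, against 3.67, 2.78 and 2.88 FPKM in control libraries, and held most of the sum in CR replicate 3. The bone matrix gene Ibsp was lowest there among CR libraries, at 2.26, 2.18 and 1.59 FPKM, against 0.555, 0.711 and 0.793 FPKM in control libraries. These 3 genes were chosen after their values were seen. Skeletal muscle markers summed to 16.2, 29.9 and 20.6 FPKM in CR libraries, against 10.02, 10.3 and 10.2 FPKM in control libraries, and their highest library was CR replicate 2. Of 5 tested, 3 were called higher, against 17.7% of all genes tested. The count was 4 without CR replicate 1 and 2 without any other single library. Control means of 3 of the 5 lay under the filter, and 1 of these 3 was called. The cartilage and muscle counts are a description and no support for the lists. Dorsal root ganglion markers summed to 2.05, 2.62 and 2.15 FPKM in CR libraries, against 2.17, 1.164 and 2.07 FPKM in control libraries, with Mrgprd at 0 throughout. Of 2 tested, 1 was called lower in CR, against 16.2% of all genes tested. With a library left out, that call held only without control replicate 2. The part of cartilage and muscle RNA in the Hox result was not tested.

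The remaining lists overlapped between groups or gave few calls. Choroid plexus markers summed to 2183, 2752 and 2209 FPKM in CR libraries, against 2778, 1654 and 1153 FPKM in control libraries, with 0 of 6 tested called, 0 at an unadjusted p under 0.05 and 0 by limma-voom, and 3 called higher by limma without control replicate 1. Meningeal markers summed to 56.2, 53.4 and 45.1 FPKM in CR libraries, against 47.7, 28.9 and 51.4 FPKM in control libraries. Of 5 tested, 1 (20%) was called higher, against 17.7% of all genes tested. That call was lost without any library other than control replicate 3. Erythroid markers summed to 13.2, 6.09 and 5.35 FPKM in CR libraries, against 7.60, 4.77 and 5.62 FPKM in control libraries, and epidermal markers to 5.28, 5.59 and 5.01 FPKM in CR libraries, against 4.43, 5.09 and 5.04 FPKM in control libraries.

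The Hox genes were also prominent among all genes that stood out in a single library. Of the genes with at least 1 FPKM in a library, those more than 4-fold above the highest of the other 5 libraries (on FPKM + 0.1) numbered 20 in CR replicate 3, of which 11 were Hox genes: Hoxa3, Hoxb3, Hoxa4, Hoxb4, Hoxc4, Hoxa5, Hoxb5, Hoxa6, Hoxb6, Hoxb7 and Hoxb8. Hoxb6 had the largest such excess in that library. By the same rule 5 and 13 genes stood out in CR replicates 1 and 2, against 11, 2 and 10 in control replicates 1 to 3, and 0 of these were Hox genes. The other 9 genes in CR replicate 3 were 3 copies of U6 and AC134056.1, the microRNA genes Mir17, Mir130a and Mir181b2, the growth hormone gene Gh1 and Matn1. This count is a description and carries no test.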

How the data were processed

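RNA-seq of polyadenylated RNA was available for 6 libraries of newborn rat brain, 3 from CR and 3 from control pups. Total RNA was isolated with TRIzol and went into a stranded library kit, per the labels' protocols. Whether counting used strand is not given, but no exon of a Hox member overlapped an exon of another gene in the tables. Per the submitters' processing notes, Trim Galore 0.4.4, Trimmomatic 0.36, cutadapt 1.16, STAR 2.7.10a, featureCounts 2.0.1 and the build mRatBN7.2 were used.

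The authors deposited FPKM per Ensembl gene with exon lengths, per the file headers. FPKM times length came out in whole reads (within 0.05) for 100% of values, which gave reads per gene and depth. Members and gene lists were chosen with earlier results of these data known. Members were described one by one, and from each pathway list up to 4 genes past the threshold with the largest change were named, except that a few of these genes are not reported here. Genes averaging 0.5 FPKM or more were tested with limma 3.58.1 (R 4.3.3) on log2(FPKM + 1), group as the only term, a trend on the mean, two-sided, Benjamini-Hochberg adjustment over all genes and a threshold of 0.05; fold changes on that scale understate changes of low genes. Folds against control libraries without a read used 3 reads in each as a floor; with 1 to 3 control reads, the ratio of pooled rates with an exact 95% interval is given. Such floors and intervals cover counting error only. The test was checked on simulated data. Alternatives were pseudocounts of 0.1 and 0.5, filters of none, 0.1 and 2 FPKM, median-ratio scaling, no trend, a replicate block, limma-voom on the reads and leaving out each library. The genes tested with a library left out were those that passed the filter over all 6 libraries.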

Additional observations from a re-analysis of the deposited data

How the results depend on the processing

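The number of Hox members called higher in CR was 6 in the analysis as reported. With no filter on low values it was 2 of 28 tested, Hoxa2 and Hoxc9, and Hoxc9 was not among the 6. Hoxa3, Hoxb3, Hoxd3, Hoxa4 and Hoxc4 missed the threshold there, with limma adjusted p of 0.0579 to 0.0864. The number was 1 of 2 tested when a mean of 2 FPKM was required, where fewer members entered. It ranged from 1 to 7 when each library was left out. It was 1 (Hoxa2) without any single control library and 7 without CR replicate 3. It was 10 with limma-voom on genes with at least 10 reads without CR replicate 3, an alternative chosen after seeing the data, and 4 to 8 under the other alternatives; no member was called lower under any of them. Of 189 values of single tested members under the alternatives, 156 kept their direction and side of the threshold, 23 lost the call, 7 (of Hoxb4, Hoxa5 and Hoxb5) gained it and 3 changed sign. The 3 were all Hoxb8 without CR replicate 3, at -0.12 (with and without the filter) and -0.46 (limma-voom); with all libraries but 1 its log2 fold change ranged from -0.12 to 1.03. Over all genes 5173 were called, and 3243 to 5037 with a library left out, the fewest without CR replicate 2 (3243) and CR replicate 3 (3339). The ratio of summed Hox FPKM ranged from 15 to 102 with a library left out. Correlations of deviations were 0.0245, 0.0198 and 0.0454 for same-numbered CR and control libraries, against -0.0428 to 0.0166 for those of unlike number. The same-numbered values were the highest, but all were small, so pairing by number is at most weak. With a replicate block 6 Hox members and 4445 genes were called, and this changed the call of no tested Hox member. Depth limits the control values: 9 to 23 Hox reads per library cannot rank members there, and 0 reads allows up to 3.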
